A study of Mus musculus with 33 samples.

Results

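The 10 genes described here encode the NF-κB transcription factor subunits (Nfkb1, Nfkb2, Rel, Rela and Relb) and proteins that restrain or modify them (Nfkbia, Nfkbie, Nfkbiz, Bcl3 and Tnfaip3). They were taken from the deposited count table by gene symbol and are 10 of its 54752 features. All 10 passed the filter on low counts and were among the 18198 genes tested.

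NF-κB subunits act as dimers that wait in the cytoplasm bound to IκB proteins. Signals from microbial sensors and cytokine receptors activate a kinase complex that marks IκB for destruction, after which the dimers enter the nucleus. Several of the genes they switch on encode their own inhibitors, which closes a feedback loop, and in myeloid cells the pathway is known for its part in emergency granulocyte production and inflammation.

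RNA came from cell populations sorted from mouse bone marrow, with 3 biological replicates in each of 11 groups and 33 libraries in all. The 7 control groups, which the design text calls wild type, were Ly6C- GMP (granulocyte-monocyte progenitors without surface Ly6C), the neutrophil progenitors proNeu1, proNeu2 and preNeu, and on the monocyte path cMoP (common monocyte progenitors), TpMo (labelled tpmo, with no meaning given) and Ly6Chi Mo (monocytes high in Ly6C). The 4 sepsis groups held the same Ly6C- GMP and the 3 neutrophil progenitors from mice with mid-grade sepsis by caecal ligation and puncture at day 3, an operation that lets gut bacteria into the abdomen. No genetic change, strain, age, sex or sham operation is named in the labels, nor whether a replicate was 1 mouse or a pool.

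Marker genes followed the labels in part. Ly6c2 averaged 123 CPM (counts scaled per megacount of the library) in Ly6C- GMP and 958 to 2894 CPM in the other 6 control groups. Ltf, a secondary granule gene, averaged 39317 CPM in preNeu and 423 CPM in proNeu2, and Csf1r, the monocyte growth factor receptor, averaged 664 to 1890.2 CPM on the monocyte path against 14.3 to 85.3 CPM elsewhere. The early neutrophil markers Elane, Mpo, Prtn3, Gfi1 and Cebpe, however, summed to more in cMoP (26494 to 28697 CPM) than in control preNeu (11787 to 21338 CPM). Most of the cMoP sum was Mpo and Elane. Gfi1 and Cebpe went the other way. Each averaged at most 9.39 CPM in the monocyte-path groups and at least 23.04 CPM in every group of the neutrophil path, control and sepsis. Control Ly6C- GMP also held basophil and mast cell, eosinophil and dendritic markers, with values given below. Xist averaged 161 to 493 CPM in the 8 groups of the neutrophil path, control and sepsis, and at most 0.554 CPM in cMoP, TpMo and Ly6Chi Mo, where the Y-linked genes were expressed instead. In every comparison between the 2 paths, cell path and sex therefore cannot be told apart. Depth ran from 5.52 to 39.98 megacounts per library. The shallow libraries, 5 in number, held at most 6.78 megacounts: replicate 1 of proNeu1 in control and in sepsis, replicate 3 of preNeu in control and in sepsis, and replicate 2 of Ly6Chi Mo.

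The promoters of the feedback genes are shown because NF-κB binding there is what closes the loop. RefSeq windows of the 250 bases before an annotated start (GRCm38.p6) were found for 7 of the 10 genes, and none for Nfkb1, Nfkbiz and Relb. Each was searched on both strands for 2 overlapping forms of the κB site, GGGNN followed directly by TTTCC (10 bases) or by TTCC (9 bases). At least 1 of these letter patterns stood in a window of 6 of the 7 genes (7 of 10 windows), and in none of Rela. Of 32851 windows of the same length over all genes, 5.99% held either pattern, 1.41% the longer and 4.98% the shorter. The stretches below are written 5′ to 3′ on the gene's strand, with matches that lie wholly within a stretch in capitals. The genes were picked for their place in this pathway, so these shares are a description and not a test of enrichment. A match describes the sequence and is not evidence of binding in these cells.
Nfkbia, chr12:55492648-55492797, minus strand: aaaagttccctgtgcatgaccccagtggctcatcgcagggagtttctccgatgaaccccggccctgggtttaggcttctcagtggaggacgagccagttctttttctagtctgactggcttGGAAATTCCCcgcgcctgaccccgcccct
Rel, chr11:23770971-23771120, minus strand: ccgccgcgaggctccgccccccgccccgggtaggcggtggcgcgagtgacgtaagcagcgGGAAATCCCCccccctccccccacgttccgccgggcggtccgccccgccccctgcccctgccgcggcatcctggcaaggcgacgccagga
Bcl3, chr7:19822771-19822920, minus strand: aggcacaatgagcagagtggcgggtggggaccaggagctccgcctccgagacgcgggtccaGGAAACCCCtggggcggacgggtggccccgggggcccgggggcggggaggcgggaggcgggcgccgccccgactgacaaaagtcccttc
Nfkbie, chr17:45555550-45555699, plus strand: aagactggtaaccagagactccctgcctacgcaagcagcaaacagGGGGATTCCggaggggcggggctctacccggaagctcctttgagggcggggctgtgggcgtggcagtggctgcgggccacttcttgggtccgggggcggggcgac
Tnfaip3, chr10:19015411-19015440, minus strand: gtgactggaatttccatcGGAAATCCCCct
Nfkb2, chr19:46304707-46304736, plus strand: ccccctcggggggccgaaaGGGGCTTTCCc
Nfkb2, chr19:46305695-46305724, plus strand: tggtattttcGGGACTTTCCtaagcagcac
The match of Nfkbia lay 20 to 29 bases before the RefSeq start, that of Tnfaip3 3 to 12 bases, that of Rel 82 to 91 bases, that of Bcl3 96 to 104 bases and that of Nfkbie 97 to 105 bases. The Tnfaip3 match lay inside the counted gene, which begins at 19015657 on the minus strand. Of that window's 250 bases, 110 were in annotated Tnfaip3 exons, though the match was not. Nfkb2 has 3 windows, of which the first and the last held matches that overlap annotated exons. The first also held the 9-base form on both strands, 30 to 39 bases before its start, which the stretch shown cuts off.

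All levels below are CPM scaled by TMM factors, and all changes are log2 differences with standard errors (SE) from 1 edgeR quasi-likelihood fit to the 33 libraries. A gene was called when its Benjamini-Hochberg adjusted p over the 18198 genes was under 0.05. Over the pairs of groups compared, 19.0% to 39.0% of all tested genes showed no overlap between libraries, higher or lower. In sorted populations, fewer cells of a type and less RNA per cell cannot be told apart.

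**Figure D1:**
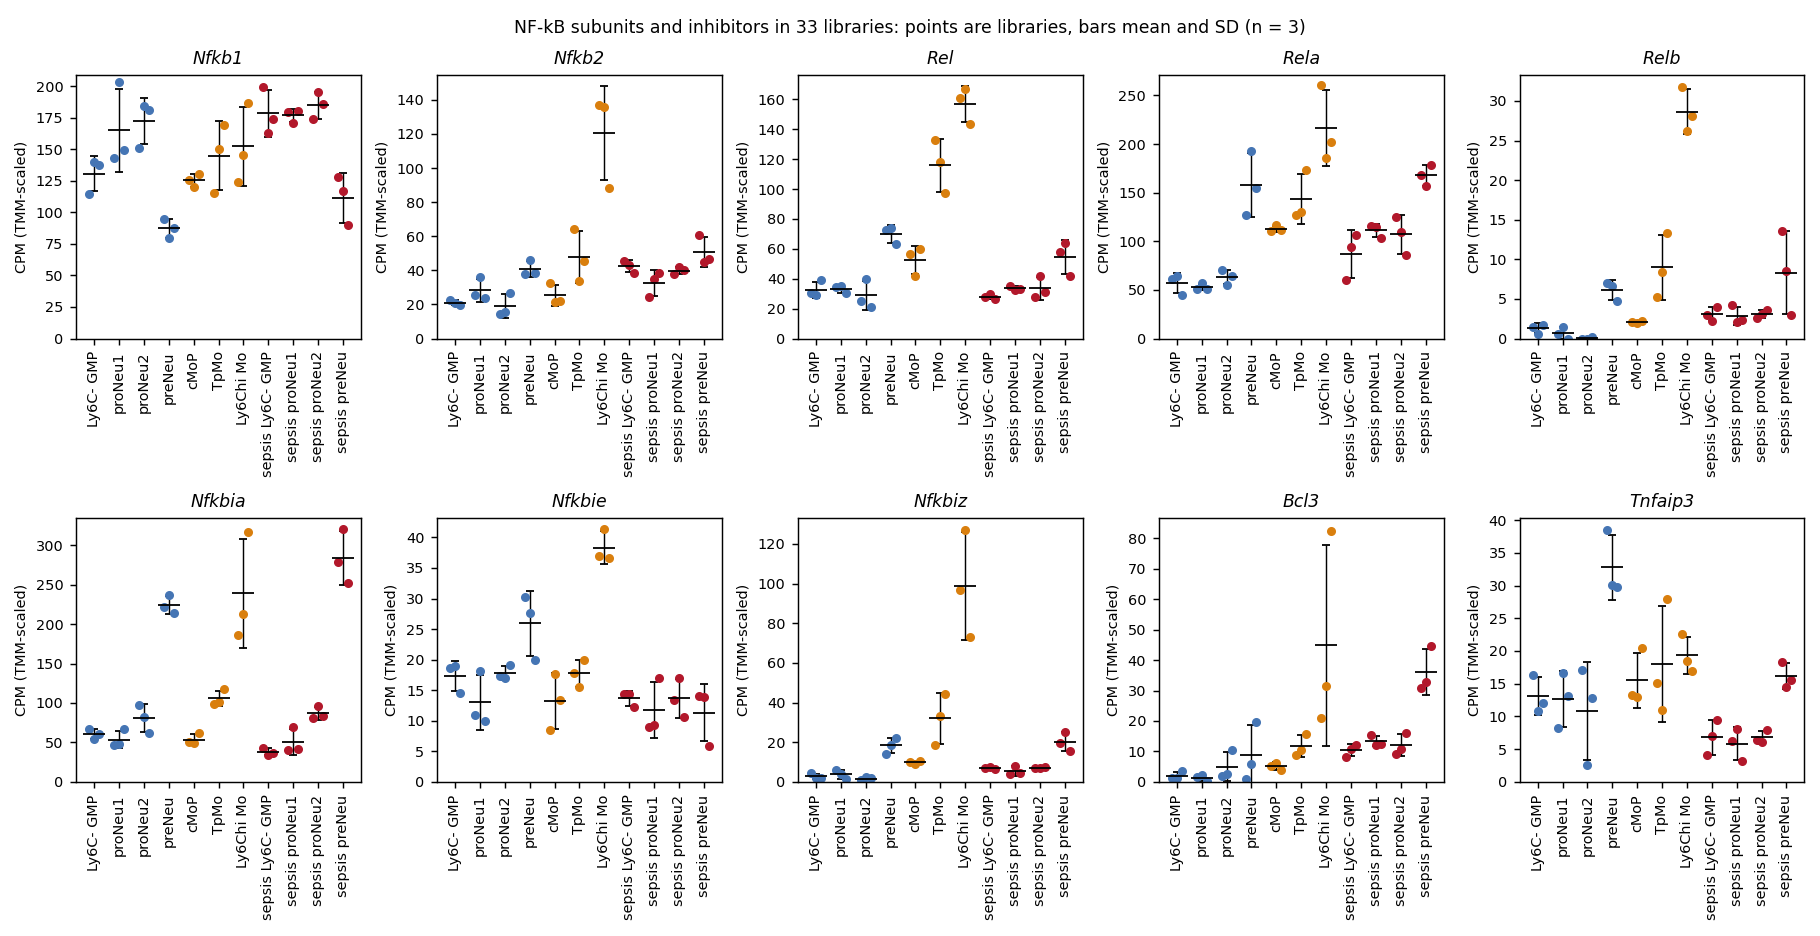
CPM of the 10 genes (vertical axes, from 0) in each of 33 libraries (points) of 11 groups (horizontal axes), with the mean and SD of 3 libraries. Control neutrophil-path groups are blue, monocyte-path groups orange and sepsis groups red; Rel, Nfkb2, Relb and Nfkbiz were highest in Ly6Chi Mo, and Tnfaip3 in preNeu.

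Along the neutrophil path, the edgeR calls among the NF-κB genes stood in the step to preNeu. Few genes of any kind were called in the earlier steps, so the lack of calls there does not show that these genes held still. From Ly6C- GMP to proNeu1, 0 of 10 were called by edgeR, where 6.04% of all tested genes were (3.59% higher, 2.45% lower). There 1 of the 10 had an unadjusted p under 0.05 (18.8% of all genes) and DESeq2 called 0 (7.76%). From proNeu1 to proNeu2, 0 of 10 were called by edgeR, against 3.05% of all genes (1.57% higher, 1.48% lower). Here 5 of the 10 had an unadjusted p under 0.05 (17.5% of all genes) and DESeq2 called 1 (5.81%). Relb was the gene that DESeq2 called, and edgeR called it without proNeu1 replicate 3 (-3.87; adjusted p = 0.012) or proNeu2 replicate 3 (-6.78; 0.044), against -3.21 with all libraries (0.095). From proNeu2 to preNeu, 7 rose and 1 fell, where 27.8% of all genes were called (13.1% rose and 14.7% fell). The median change of the 10 in this last step was 1.30 on the log2 scale, against 0.00 for all tested genes. The summed level of 14 immediate early genes, which respond to handling as well as to signals, was 304 to 336 CPM in proNeu2 and 439 to 640.0 CPM in preNeu, with no overlap. Of these 14, 3 rose and none fell in the step to preNeu, and their part in the NF-κB results was not tested.

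Rela, which encodes the subunit with the strong activation domain of the most common dimer (chromosome 19, 5637483 to 5648130, GRCm38), stood at 70.2, 55.5 and 64.7 CPM in proNeu2 and at 127, 193 and 154 CPM in preNeu. The groups did not overlap, and Rela rose by 1.32 ± 0.19 (SE; edgeR adjusted p = 3.6e-06). Rel, the c-Rel subunit prominent in activated blood cells (chromosome 11, 23736847 to 23770970), went from 25.2, 39.8 and 21.3 CPM to 72.8, 74.2 and 63.0 CPM. Every preNeu library was above every proNeu2 library, and the rise was 1.28 ± 0.20 (edgeR adjusted p = 1.2e-05).

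Nfkb1, whose precursor protein is processed into the partner of RelA and which also acts as an inhibitor (chromosome 3, 135584655 to 135691547), moved the other way. It stood at 151, 184 and 181 CPM in proNeu2 and at 94.9, 79.9 and 87.5 CPM in preNeu, with no overlap, and fell by 0.98 ± 0.16 (edgeR adjusted p = 1.9e-05). It was the 1 gene of the 10 that fell in this step. Nfkb2, the precursor of the non-canonical subunit (chromosome 19, 46304737 to 46312090), rose from 14.5, 15.6 and 27.0 CPM to 38.0, 46.2 and 38.2 CPM, a change of 1.10 ± 0.25 (edgeR adjusted p = 0.0011). In GENCODE vM21 Nfkb2 shares 531 exonic bases with the antisense gene AC114539.1 and 299 with Psd, so that its counts are uncertain without a known strand setting.

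Relb, the non-canonical partner of the Nfkb2 product (chromosome 7, 19606217 to 19629438), had the widest range of group means, 7.66 on the log2 scale with a prior count of 2. The low end of that range, in proNeu2, rests on 4 counts and depends on the prior count. Relb was barely detected in proNeu2, with 0, 0 and 0.202 CPM, and 3 counts would have been 0.144 and 0.153 CPM in the libraries at 0. The preNeu libraries held 7.07, 6.58 and 4.70 CPM. Summed over libraries this was 4 counts against 268, a ratio of 98.7 with a 95% exact interval of 38.1 to 365 that covers counting error only. The interval takes the counts as independent. It would be too narrow if both mates of a read pair were counted. How mates were counted is not known, and 76.2% of all counts from 1 to 10 were even. edgeR called the rise (adjusted p = 2.1e-05) with a fitted change of 6.40, which went to 9.98 without proNeu2 replicate 3, the library that held all 4 counts.

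Of the 5 inhibitors, 3 rose in the same step. Nfkbia, which encodes IκBα, the classical cytoplasmic inhibitor and feedback product (chromosome 12, 55489410 to 55492647), went from 98.0, 82.2 and 62.4 CPM to 221, 237 and 214 CPM, a rise of 1.47 ± 0.20 (edgeR adjusted p = 1.9e-06). Nfkbie, which encodes IκBε (chromosome 17, 45555703 to 45563169), had 17.3, 17.0 and 19.1 CPM in proNeu2 and 30.2, 27.7 and 20.0 CPM in preNeu, and its difference of 0.55 ± 0.30 was not called (edgeR adjusted p = 0.19). Its preNeu libraries were nevertheless all above its proNeu2 libraries, as held for 17.5% of all tested genes.

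Nfkbiz, an atypical nuclear IκB protein that helps switch on secondary response genes (chromosome 16, 55811375 to 55838899), rose from 0.672, 2.35 and 1.97 CPM to 14.3, 18.8 and 22.1 CPM. This was 3.46 ± 0.46 with no overlap (edgeR adjusted p = 1.2e-06). Tnfaip3, the ubiquitin-editing enzyme that shuts off receptor signalling (chromosome 10, 19000910 to 19015657), rose by 1.60 ± 0.45 (edgeR adjusted p = 0.0078), from 17.1, 2.55 and 12.8 CPM to 38.6, 30.1 and 29.7 CPM. Fitted to the libraries of these 2 groups alone, the Tnfaip3 call was lost (adjusted p = 0.065).

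Bcl3, a nuclear IκB family member that works as a cofactor (chromosome 7, 19808462 to 19822770), varied too much between replicates to place. Its proNeu2 libraries held 1.92, 2.65 and 10.4 CPM and its preNeu libraries 0.799, 5.98 and 19.8 CPM, of which the last is a shallow library. The groups overlapped, and the difference of 0.74 ± 0.73 was not called (edgeR adjusted p = 0.50). Bcl3 shares 161 exonic bases with the antisense gene Gm16175 and carries the same strand uncertainty.

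**Figure D2:**
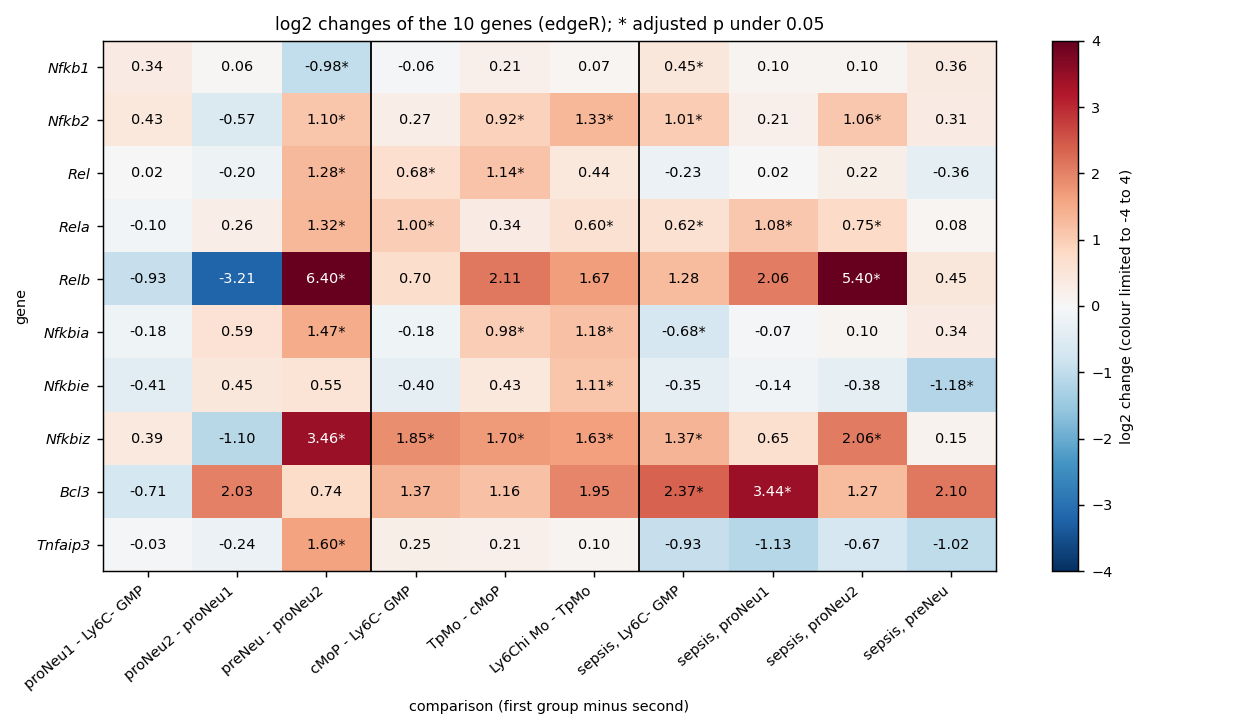
log2 change of each gene (rows) in the 6 steps along the control paths and in sepsis against control in 4 populations (columns), from edgeR, with an asterisk for an adjusted p under 0.05. The preNeu step has asterisks for 8 of the 10 genes, more than any other column, and the first 2 steps of the neutrophil path have none.

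On the monocyte path the changes were spread over all 3 steps and every called gene rose. From Ly6C- GMP to cMoP 3 of 10 rose (9.22% of all genes), from cMoP to TpMo 4 rose (9.52%) and from TpMo to Ly6Chi Mo 5 rose (7.59%), with none lower in any of the 3 steps (7.96%, 8.56% and 13.3% of all genes). In either direction 17.2%, 18.1% and 20.9% of all genes were called. Median changes of the 10 were 0.48, 0.95 and 1.14 on the log2 scale, against 0.00 for all tested genes in each step. Nfkbiz was called in every step. In the step from Ly6C- GMP to cMoP, cell path and sex cannot be told apart. Markers of other cells also differed there. Basophil and mast cell markers summed to 6706 to 9591 CPM in control Ly6C- GMP, 10.3 to 14.9 CPM in cMoP and 55.5 to 107 CPM in proNeu1. Dendritic markers summed to 1992 to 2729, 6.31 to 8.84 and 47.9 to 78.3 CPM in the same order. In Ly6C- GMP nearly all of this was Cd74 and H2-Ab1, and Itgax averaged at most 7.48 CPM. Eosinophil markers summed to 3909 to 7161, 1.45 to 7.41 and 23.4 to 38.8 CPM. Their part in the changes from Ly6C- GMP was not tested.

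Nfkbiz had 4.27, 2.03 and 1.87 CPM in Ly6C- GMP, 9.84, 9.22 and 10.5 CPM in cMoP, 18.3, 33.2 and 44.3 CPM in TpMo and 96.7, 127 and 72.9 CPM in Ly6Chi Mo. No neighbouring groups overlapped. The successive rises were 1.85 ± 0.43, 1.70 ± 0.41 and 1.63 ± 0.41 (edgeR adjusted p = 0.0024, 0.0035 and 0.0040).

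Among the subunits, Rel rose in the first 2 steps and Rela in the first and the last. Rel stood at 30.3, 28.8 and 38.9 CPM in Ly6C- GMP, 56.3, 41.7 and 59.6 CPM in cMoP, 133, 118 and 97.3 CPM in TpMo and 161, 167 and 143 CPM in Ly6Chi Mo. The groups did not overlap at any step, and the changes were 0.68 ± 0.20, 1.14 ± 0.20 and 0.44 ± 0.20 (edgeR adjusted p = 0.015, 9.3e-05 and 0.12). The first Rel call was lost without Ly6C- GMP replicate 1 (adjusted p = 0.064) or replicate 2 (0.080) and without cMoP replicate 1 (0.062) or replicate 3 (0.084).

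Rela had 61.1, 63.9 and 44.9 CPM in Ly6C- GMP, 111, 117 and 112 CPM in cMoP, 127, 130.1 and 173 CPM in TpMo and 261, 186 and 203 CPM in Ly6Chi Mo. It rose by 1.00 ± 0.19 into cMoP (edgeR adjusted p = 0.00029) and by 0.60 ± 0.19 from TpMo to Ly6Chi Mo (adjusted p = 0.020). The second call was lost without TpMo replicate 1 (adjusted p = 0.133), TpMo replicate 2 (0.096) or Ly6Chi Mo replicate 1 (0.168). Between cMoP and TpMo the difference of 0.34 ± 0.19 was not called (edgeR adjusted p = 0.23).

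Nfkb2 rose in the last 2 steps, from 32.6, 21.3 and 22.1 CPM in cMoP to 64.3, 33.8 and 45.5 CPM in TpMo and 137, 136 and 88.5 CPM in Ly6Chi Mo. The changes were 0.92 ± 0.25 and 1.33 ± 0.25 (edgeR adjusted p = 0.0082 and 0.00016), and the first was lost without cMoP replicate 2 (adjusted p = 0.071) or TpMo replicate 1 (0.130). Relb climbed over the path from 2.06, 2.00 and 2.17 CPM in cMoP to 5.21, 8.43 and 13.3 CPM in TpMo and 31.7, 26.2 and 28.1 CPM in Ly6Chi Mo. The groups were apart at both steps, yet neither difference was called (2.11 ± 0.76 and 1.67 ± 0.74; edgeR adjusted p = 0.053 and 0.11), while DESeq2 called both (0.011 and 0.036). Nfkb1 was not called in any of the 3 steps, with group means of 125.4 ± 5.21 CPM in cMoP, 145 ± 27.2 CPM in TpMo and 152 ± 31.6 CPM in Ly6Chi Mo (SD, n = 3).

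Of the inhibitors, Nfkbia rose in the last 2 steps, with 50.2, 48.9 and 61.6 CPM in cMoP, 99.2, 101.04 and 117 CPM in TpMo and 187, 213 and 317 CPM in Ly6Chi Mo. The rises were 0.98 ± 0.20 and 1.18 ± 0.20 (edgeR adjusted p = 0.00063 and 4.9e-05), without overlap. Nfkbie rose from TpMo (17.9, 15.5 and 19.9 CPM) to Ly6Chi Mo (36.9, 41.4 and 36.6 CPM) by 1.11 ± 0.30 (edgeR adjusted p = 0.0084). Tnfaip3 was not called at any monocyte step, with 15.5 ± 4.23, 18.0 ± 8.86 and 19.3 ± 2.88 CPM (SD, n = 3) in cMoP, TpMo and Ly6Chi Mo. Bcl3 reached 20.8, 31.4 and 82.6 CPM in Ly6Chi Mo from 8.93, 10.4 and 15.7 CPM in TpMo, with no overlap, and was not called (1.95 ± 0.72; edgeR adjusted p = 0.054) except under several alternatives, among them leaving out Ly6Chi Mo replicate 1 (0.037). DESeq2 called 8 of 10 in this step (24% of all genes), against 5 by edgeR (20.9%).

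Immediate early genes also moved with the monocyte path. The summed level of the same 14 genes was 792 to 2420.3 CPM in cMoP, 1662 to 4238 CPM in TpMo and 1533 to 6636 CPM in Ly6Chi Mo, against 246 to 640.0 CPM in the 24 libraries of the neutrophil path, control and sepsis. Fos averaged 285 CPM in cMoP and 12.6 CPM in Ly6C- GMP, a rise of 4.50 ± 0.59 (edgeR adjusted p = 2.0e-06). Their part in the NF-κB results of the monocyte path was not tested. Macrophage markers also rose along the path, from 38.4 to 55.0 CPM summed in cMoP to 273 to 501 CPM in Ly6Chi Mo, nearly all of it Adgre1, while C1qa, C1qb and C1qc averaged at most 1.66 CPM there. The 4 dendritic markers summed to 17.0 to 26.8 CPM in TpMo and 176 to 722 CPM in Ly6Chi Mo, and 2 of the 3 tested rose. Nearly all of that sum in Ly6Chi Mo was Cd74 and H2-Ab1, while Itgax and Siglech averaged at most 1.87 and 0.058 CPM on the monocyte path. The part of both marker lists was not tested either.

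At the branch, comparing proNeu1 with cMoP, Rel, Rela and Nfkbiz were lower and none was higher (8.03% and 8.25% of all genes were lower and higher, 16.3% in all). Rela fell by 1.10 ± 0.19, from 111 to 117 CPM in cMoP to 50.5 to 56.7 CPM in proNeu1 (edgeR adjusted p = 0.00011). Rel fell by 0.67 ± 0.20 (adjusted p = 0.019) and Nfkbiz fell by 1.47 ± 0.43 (adjusted p = 0.018). Without proNeu1 replicate 3 both of these calls were lost (adjusted p = 0.070 and 0.120), which left 1 called gene, and without proNeu1 replicate 2 there were 5, with Relb (-3.88; 0.015) and Bcl3 (-3.06; 0.044) added. The Rel call was also lost without cMoP replicate 1 (adjusted p = 0.074) or replicate 3 (0.099), and the Nfkbiz call when only the libraries of these 2 groups were fitted (0.065).

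Comparing preNeu with TpMo, Nfkbia was higher and Nfkb1 and Rel were lower (13% and 15.1% of all genes were higher and lower, 28.1% in all). Nfkbia stood at 214 to 237 CPM in preNeu and 99.2 to 117 CPM in TpMo, a difference of 1.08 ± 0.20 (edgeR adjusted p = 0.00010). Rel stood at 63.0 to 74.2 CPM against 97.3 to 133 CPM and was lower by 0.73 ± 0.20 (adjusted p = 0.0056). Nfkb1 was lower by the same amount, with 79.9 to 94.9 CPM against 115 to 169 CPM (adjusted p = 0.00063). Without TpMo replicate 3, Tnfaip3 was called as higher in preNeu (1.37; adjusted p = 0.047). Median changes of the 10 were -0.47 at the branch and -0.35 here, against 0.00 and -0.06 for all tested genes.

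Over the 7 control groups together, all 10 genes differed (F test, 63.6% of all genes). Adjusted p ranged from 2.2e-12 for Nfkbiz to 0.030 for Tnfaip3. Tnfaip3 was no longer called without any 1 of the preNeu libraries (adjusted p = 0.155, 0.079 and 0.069 without replicates 1, 2 and 3) or without the shallow libraries (0.139).

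Ordered by mean level over all 11 groups, Ly6Chi Mo ranked first for Nfkb2, Rel, Rela, Relb, Nfkbie, Nfkbiz and Bcl3. Its libraries lay above those of every other group for Nfkb2, Rel, Relb, Nfkbie and Nfkbiz. The share of all genes with this pattern was not counted, so it is a description and not shown to be particular to these genes. Against TpMo alone, 15.8% of all tested genes were higher in Ly6Chi Mo without overlap. For Rela its range (186 to 261 CPM) overlapped that of control preNeu (127 to 193 CPM), and for Bcl3 it overlapped that of sepsis preNeu. For Nfkbia, sepsis preNeu was highest (252 to 321 CPM) and overlapped Ly6Chi Mo (187 to 317 CPM), which overlapped control preNeu (214 to 237 CPM), and these 3 groups stood clear of TpMo. For Tnfaip3, control preNeu (29.7 to 38.6 CPM) stood clear of all others. For Nfkb1, no group stood clear of its neighbour in the order, from 185 ± 10.6 CPM in sepsis proNeu2 down to 87.4 ± 7.51 CPM in control preNeu (SD, n = 3). Of 10 neighbouring pairs for each gene, at most 3 did not overlap, and the share over all genes was not counted here either.

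**Figure D3:**
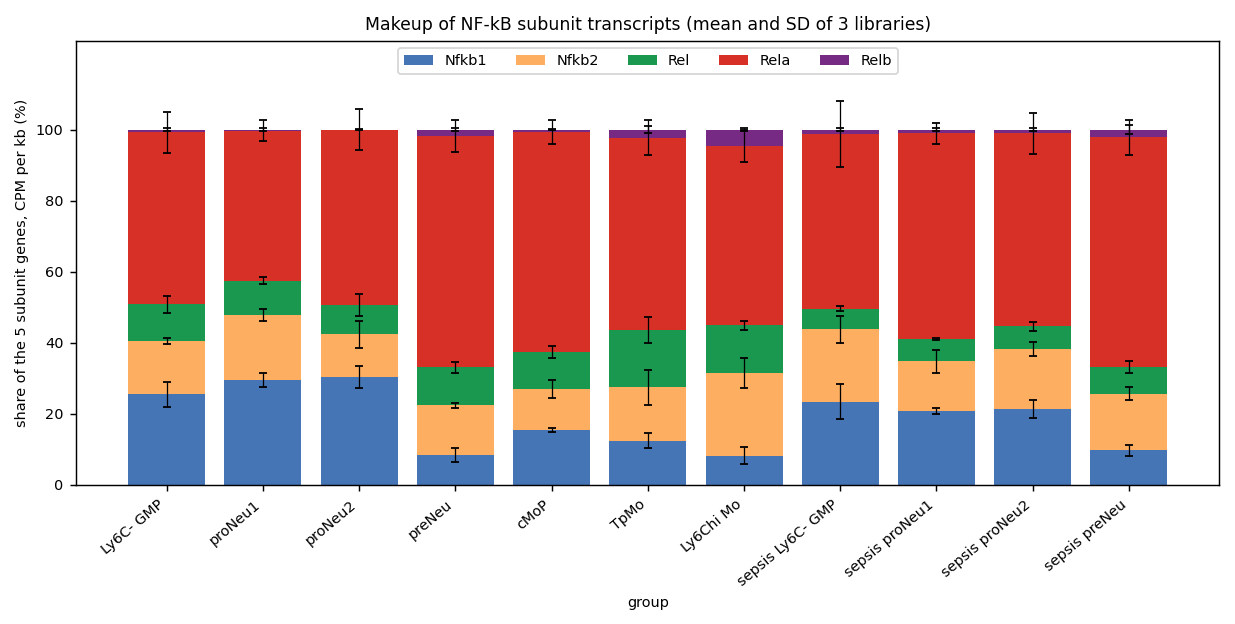
Share of each of the 5 subunit genes in their summed CPM per kilobase (vertical axis, %), as stacked means of 3 libraries in 11 groups (horizontal axis), with the SD of each segment drawn at its top. Rela had the largest share in every group, and the Nfkb1 share was smallest in control preNeu and Ly6Chi Mo.

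Levels of different genes can be set side by side only per kilobase of exonic length as deposited. On that scale Rela made up 42.2% to 65.2% of the 5 subunit genes in every group, and more in preNeu (65.2% ± 4.44; SD, n = 3) than in proNeu2 (49.4% ± 5.87) with no overlap between libraries. The share of Nfkb1 was 30.2% ± 3.11 in proNeu2, 8.34% ± 1.85 in preNeu and 8.19% ± 2.5 in Ly6Chi Mo. Relb reached its largest share, 4.70% ± 0.30, in Ly6Chi Mo. In sepsis the Nfkb1 share was 20.7% in proNeu1 and 21.4% in proNeu2, against 29.4% and 30.2% in controls. It was 23.3% against 25.4% in Ly6C- GMP and 9.63% against 8.34% in preNeu, and in both the libraries overlapped. These shares depend on the annotated lengths, from 2716 bases for Rela to 12061 for Nfkb1.

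In sepsis, Rela rose in 3 of the 4 populations, and Nfkb2, Nfkbiz and Bcl3 in 2 each. In Ly6C- GMP 5 of 10 rose and 1 fell (10.3% and 7.42% of all genes), in proNeu1 2 rose (8.3%), in proNeu2 4 rose (9.45%), and in preNeu none rose (7.57%) and 1 fell (4.21%). In either direction 17.7%, 15.6%, 17% and 11.8% of all genes were called. In proNeu1 and proNeu2 none fell (7.3% and 7.57% of all genes). Whether the effects of sepsis differ between the 4 populations was tested for each gene and is given below. Medians of the 10 were 0.53, 0.15, 0.49 and 0.23 on the log2 scale, against -0.01, -0.03, 0.00 and 0.00 for all tested genes.

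Rela rose in 3 populations. In Ly6C- GMP it went from 61.1, 63.9 and 44.9 CPM to 59.7, 94.6 and 107 CPM, where the first sepsis library lay within the control range, in proNeu1 from 51.3, 56.7 and 50.5 CPM to 115, 115 and 104 CPM, and in proNeu2 from 70.2, 55.5 and 64.7 CPM to 126, 109.7 and 85.8 CPM. The rises were 0.62 ± 0.19, 1.08 ± 0.19 and 0.75 ± 0.19 (edgeR adjusted p = 0.020, 0.00020 and 0.0048). In preNeu sepsis libraries at 168, 157 and 179 CPM lay within the control range of 127 to 193 CPM (0.08 ± 0.19; adjusted p = 0.86). The call in Ly6C- GMP was lost without control replicate 3 (adjusted p = 0.126) and without sepsis replicate 2 (0.080) or 3 (0.157), and when only these 6 libraries were fitted (0.107).

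Nfkb2 rose in Ly6C- GMP, from 22.6, 21.1 and 19.5 CPM to 45.7, 43.4 and 38.6 CPM, and in proNeu2, from 14.5, 15.6 and 27.0 CPM to 37.6, 41.7 and 40.03 CPM. Neither comparison overlapped, and the rises were 1.01 ± 0.25 and 1.06 ± 0.25 (edgeR adjusted p = 0.0040 and 0.0030). Nfkb1 was called in Ly6C- GMP alone, from 115, 139.5 and 137 CPM to 199, 163 and 174 CPM (0.45 ± 0.16; adjusted p = 0.043), a call that was lost when any 1 of the 6 libraries was left out (adjusted p = 0.050 to 0.211), with RLE factors (0.057), without the filter (0.082) and without the shallow libraries (0.052). Rel was called in none of the 4 populations, with edgeR adjusted p from 0.27 to 0.99.

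Relb rose from near 0 in proNeu2. The sepsis libraries held 2.55, 3.08 and 3.56 CPM against 0, 0 and 0.202 CPM in controls, or 186 counts against 4, a ratio of 46.1 with a 95% exact interval of 17.7 to 171 for counting error only. This interval too takes the counts as independent and would be too narrow if both mates were counted. The rise was called (edgeR adjusted p = 0.00036), with a fitted change of 5.40 that went to 8.98 without control proNeu2 replicate 3. In Ly6C- GMP (3.01, 2.23 and 4.03 against 1.5, 0.569 and 1.75 CPM) and proNeu1 (4.18, 2.06 and 2.30 against 0.549, 1.45 and 0 CPM) all sepsis libraries were above all controls, without a call (1.28 ± 0.75 and 2.06 ± 0.81; edgeR adjusted p = 0.27 and 0.087). Of all tested genes, 19.1% and 16.9% were higher without overlap in these comparisons. Without control proNeu1 replicate 2 the Relb difference in proNeu1 was 4.27 and was called (edgeR adjusted p = 0.0095).

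Bcl3 was higher in sepsis in every population by estimate and was called in the first 2. In Ly6C- GMP it went from 1.15, 1.32 and 3.58 CPM to 8.15, 10.9 and 12.2 CPM (2.37 ± 0.75; edgeR adjusted p = 0.026), and in proNeu1 from 1.51, 2.10 and 0.239 CPM to 15.4, 12.1 and 12.6 CPM (3.44 ± 0.81; adjusted p = 0.0038). Neither comparison overlapped. In preNeu the sepsis libraries, at 30.8, 32.8 and 44.6 CPM, were also all above the controls at 0.799, 5.98 and 19.8 CPM, and the difference of 2.10 ± 0.74 was not called (adjusted p = 0.065). Of all tested genes, 14.2% were higher without overlap in preNeu. Without the shallow control replicate 3 the Bcl3 difference in preNeu was 3.41 and was called (edgeR adjusted p = 0.0046), as it was by DESeq2 (0.035). In proNeu2 the groups overlapped (9.08, 10.8 and 16.2 against 1.92, 2.65 and 10.4 CPM; adjusted p = 0.25), and the call was made without control replicate 3 (2.4; adjusted p = 0.049).

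Nfkbiz rose in Ly6C- GMP, from 4.27, 2.03 and 1.87 CPM to 6.95, 7.70 and 6.45 CPM, and in proNeu2, from 0.672, 2.35 and 1.97 CPM to 6.75, 6.81 and 7.30 CPM. The rises were 1.37 ± 0.42 and 2.06 ± 0.44 without overlap (edgeR adjusted p = 0.023 and 0.0014). In Ly6C- GMP the Nfkbiz call was lost without control replicate 2 (adjusted p = 0.107) or 3 (0.111) or sepsis replicate 2 (0.066), and when only these 6 libraries were fitted (0.053). The Bcl3 call there was lost without control replicate 1 (0.112) or 2 (0.107) or sepsis replicate 2 (0.056) or 3 (0.069), and without the filter (0.072), and the Bcl3 change itself went up to 3.08 with 1 library left out.

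Nfkbia and Nfkbie were not called as higher in any of the 4 populations. Nfkbia fell in Ly6C- GMP from 66.8, 54.8 and 60.9 CPM to 43.3, 34.4 and 36.5 CPM, with no overlap, by 0.68 ± 0.20 (edgeR adjusted p = 0.018), and the call was lost without control replicate 1 (0.074) or sepsis replicate 2 (0.082) or 3 (0.067). In preNeu the sepsis libraries, at 279, 321 and 252 CPM, were all above the controls at 221, 237 and 214 CPM, with a difference of 0.34 ± 0.20 that was not called (adjusted p = 0.31). Nfkbie fell in preNeu, from 30.2, 27.7 and 20.0 CPM to 14.1, 13.9 and 5.94 CPM, by 1.18 ± 0.31 without overlap (adjusted p = 0.011). That call was lost without control preNeu replicate 1 (0.067) or sepsis preNeu replicate 3 (0.088), which leaves 0 called genes in preNeu, and when only these 6 libraries were fitted (0.056). Leaving out 1 library of Ly6C- GMP left 1 to 5 called genes of 6, of which Nfkb2 was called each time.

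Tnfaip3 was lower in sepsis in all 4 populations by estimate and called in none of them singly. In Ly6C- GMP it went from 16.3, 10.8 and 12.1 CPM to 4.09, 6.98 and 9.41 CPM, in proNeu1 from 8.23, 16.7 and 13.1 CPM to 6.26, 8.07 and 3.17 CPM, and in preNeu from 38.6, 30.1 and 29.7 CPM to 18.4, 14.5 and 15.6 CPM. In these 3 populations every sepsis library was below every control. Of all tested genes, 17.7%, 15.9% and 11.5% were lower in this way in Ly6C- GMP, proNeu1 and preNeu. In proNeu2 the sepsis libraries (6.39, 6.10 and 7.93 CPM) lay within the control range of 2.55 to 17.1 CPM. The Tnfaip3 estimates ran from -1.13 to -0.67 (edgeR adjusted p = 0.095 to 0.34).

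**Figure D4:**
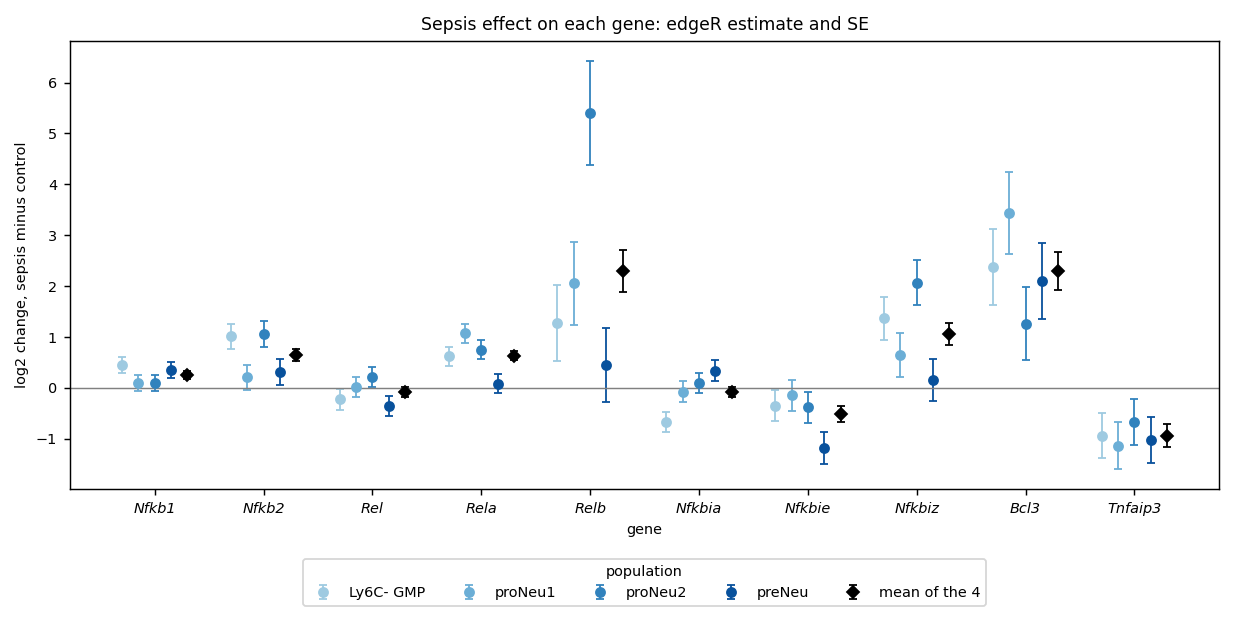
log2 change in sepsis against control (vertical axis) for each of the 10 genes (horizontal axis) in 4 populations (circles) and as their mean (diamonds), with SE from edgeR. Bcl3 lies above 0 and Tnfaip3 below 0 in all 4 populations, and the Relb estimate in proNeu2 rests on 4 control counts.

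Averaged over the 4 populations, which pools the same 24 libraries, 6 of 10 rose and 2 fell (19.6% and 17.5% of all genes, 37.1% in all). Bcl3 rose by 2.29 ± 0.38 (edgeR adjusted p = 1.6e-05), Relb by 2.30 ± 0.42 (6.8e-05), Nfkbiz by 1.06 ± 0.21 (0.00022), Nfkb2 by 0.65 ± 0.12 (0.00011), Rela by 0.63 ± 0.09 (3.3e-06) and Nfkb1 by 0.25 ± 0.08 (0.011). The Relb value went up to 3.19 without control proNeu2 replicate 3, and these calls were kept when any 1 library was left out. Tnfaip3 fell by 0.94 ± 0.22 (edgeR adjusted p = 0.0014) and Nfkbie by 0.51 ± 0.15 (0.0088). Rel and Nfkbia were not called (-0.09 ± 0.10 and -0.08 ± 0.10; adjusted p = 0.56 and 0.63).

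A test of whether the sepsis effect differs between populations called 0 of 10 by edgeR (6.34% of all genes), with 5 at an unadjusted p under 0.05 (19.1% of all genes) and 3 called by DESeq2 (10.5%). The lowest edgeR adjusted p were those of Relb (0.060), Rela (0.086) and Nfkbia (0.093), the same genes that DESeq2 called. Leaving out 1 library gave 0 or 1 call. Relb was called without control proNeu1 replicate 2 (0.014) or 3 (0.0070) or control proNeu2 replicate 3 (0.024), Rela without control preNeu replicate 1 (0.043) or sepsis Ly6C- GMP replicate 1 (0.035), and Nfkbia without sepsis proNeu1 replicate 2 (0.036). So a change called in 1 population and not in another is not shown here to differ between them.

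Markers of other cells moved with the sepsis comparisons. In control Ly6C- GMP the 3 basophil and mast cell markers summed to 6706 to 9591 CPM, against 210.5 to 825 CPM in sepsis Ly6C- GMP. The 4 dendritic markers summed to 1992 to 2729 CPM against 11.3 to 16.1 CPM. In controls this was nearly all Cd74 and H2-Ab1 (Siglech, the plasmacytoid marker, was near 0). The 2 eosinophil markers summed to 3909 to 7161 CPM against 2095 to 4119 CPM. In preNeu the 5 later neutrophil markers (Ltf, Camp, Ngp, Lcn2 and Ly6g) summed to 65697 to 105081 CPM in controls and 27224 to 37329 CPM in sepsis. Most of the control sum was Ltf and Ngp. Lcn2 was not lower in sepsis preNeu by estimate, and its change is given below. Kit averaged 221 CPM in control and 27.6 CPM in sepsis preNeu. In proNeu1 the 5 early neutrophil markers summed to 71594 to 78739 CPM in controls and 30169 to 35008 CPM in sepsis. In proNeu2 the same 5 markers summed to 90539 to 96849 CPM in controls and 38046 to 40847 CPM in sepsis, the T and NK cell markers, nearly all Nkg7, to 1179 to 1552 CPM against 415 to 494.5 CPM, and the eosinophil markers to 19.3 to 32.6 CPM against 77.4 to 185 CPM. Their part in the NF-κB results was not tested.

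The rest of the pathway was followed through 5 lists: 11 ligands (7 tested), 13 receptors, 24 kinases and adaptors, 14 other inhibitors and 32 target genes (27 tested). From proNeu2 to preNeu, 2 ligands rose and none fell, 4 receptors rose and 1 fell, 5 kinases and adaptors rose and 1 fell, 2 other inhibitors rose and 3 fell, and 7 target genes rose and 2 fell. Of all tested genes 13.1% rose and 14.7% fell. Tnf, a canonical NF-κB activating cytokine, rose from 1.11 to 20.6 CPM on average (4.21 on the log2 scale), and Tnfsf13b, the B cell survival factor BAFF, from 8.64 to 111 CPM (3.68). Ltbr, the receptor for lymphotoxin, rose by 1.29, the kinase Map3k8 by 2.86 and Rnf31, the catalytic subunit of the linear ubiquitin ligase, by 1.69. Nfkbid, another nuclear IκB protein, rose by 1.72, and Vcam1, an adhesion molecule, fell by 1.32. Each of these 7 was called under all 13 alternative settings. List medians were 0.78, 0.32, 0.24, 0.13 and 0.42, against 0.00 for all tested genes.

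On the monocyte path Tlr2, the sensor of bacterial lipoproteins, rose at every step, from 8.55 CPM in Ly6C- GMP to 26.0, 59.97 and 319 CPM on average (1.60, 1.21 and 2.41 on the log2 scale). Among receptors 5, 3 and 4 rose in the 3 steps and 1, 0 and 1 fell. Among kinases and adaptors 7, 5 and 6 rose and 1, 0 and 1 fell. Of all tested genes 9.22%, 9.52% and 7.59% rose in these steps and 7.96%, 8.56% and 13.3% fell. Irak2, a kinase downstream of Toll-like receptors, rose by 1.62 into cMoP, and Ripk1 rose by 1.35 from TpMo to Ly6Chi Mo. Nfkbid rose by 3.54 into cMoP, while Irak3, a brake on that signalling, fell by 1.95 there and rose by 1.01 into TpMo. The target C3, a complement component, rose by 1.95 and 2.14 in the first 2 steps.

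In the sepsis comparisons, Tlr2 and Myd88, the adaptor of Toll-like and interleukin-1 receptors, rose in all 4 populations. Tlr2 averaged 45.5, 39.6, 41.1 and 79.0 CPM in the 4 sepsis groups (in the order of the path from Ly6C- GMP), against 8.55, 13.0, 5.58 and 11.1 CPM in controls (2.41, 1.61, 2.88 and 2.86). Myd88 rose by 1.84, 1.40, 1.26 and 1.04. Il1r1, the interleukin-1 receptor, rose in Ly6C- GMP from 0.782 to 22.4 CPM (4.84). As the mean over the 4 populations, 7 receptors rose and 1 fell, 9 kinases and adaptors rose and 6 fell, 2 ligands rose and 1 fell, 2 other inhibitors rose and 2 fell, and 10 target genes rose and 4 fell. Of all tested genes 19.6% rose and 17.5% fell.

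Within those lists, Ikbkg, the regulatory subunit of the IκB kinase complex, fell by 0.79 as a mean over populations, and Tnfsf13b fell by 1.37. Tnf rose by 1.26 and Nfkbib, the third cytoplasmic IκB, by 0.60, whereas Irak3 fell by 0.59 and Tax1bp1, a partner of the Tnfaip3 protein, by 0.34. Vcam1 fell by 1.70, while Junb, an immediate early gene, rose by 1.19. Each of these 8 mean effects was called under all 30 alternatives. List medians of the mean effect were -0.04 for ligands, 0.76 for receptors, 0.07 for kinases and adaptors, 0.01 for other inhibitors and 0.08 for target genes, against 0.00 for all tested genes.

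Genes of like pattern were sought by Pearson r of the 11 group means of log2 CPM, among 8377 other genes. For Relb the 3 nearest were Rnf31 (0.98), the interferon-induced Ifitm3 (0.97) and Retreg3 (0.94). The nearest gene was Kat8 for Nfkb1 (0.93), Sbno2 for Nfkb2 (0.94), Evi5 for Rel (0.98), Plekhm1 for Rela (0.98), Abtb1 for Nfkbia (0.97), Cdk13 for Nfkbie (0.93), Tmem104 for Nfkbiz (0.98), Mvp for Bcl3 (0.94) and Sh2d3c for Tnfaip3 (0.97). Among the 45 pairs of the 10 genes, r was positive for 37, highest for Relb and Nfkbiz (0.93) and lowest for Nfkb1 and Tnfaip3 (-0.87). The 11 points share the difference between paths and the sex of the samples, and these are the best of many values, so they are descriptions.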

How the data were processed

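Populations of mouse bone marrow cells were profiled by SMARTSeq v2 RNA sequencing, per the labels' protocols. The deposited table holds raw counts per gene, made by the authors with STAR on GRCm38 and featureCounts, per the submitters' processing notes. Versions, the strand setting and whether read pairs or mates were counted are not given in the sources used here. Of counts from 1 to 10, 76.2% were even. Symbols matched 54723 of 54752 features, and 0 columns were left unused.

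Groups follow the cell type labels. All 33 libraries were fitted with edgeR 4.0.16 in R 4.3.3 (filterByExpr, TMM factors of 0.804 to 1.17, robust quasi-likelihood, 22 residual degrees of freedom, biological coefficient of variation 0.472), which was tested on simulated data. CPM used the scaled library sizes. DESeq2 1.42.0 was an alternative. p-values were adjusted per comparison over all 18198 genes. Members and lists were chosen with earlier results of these data known. Other pathway genes were named by rank of change among the called genes of their list, at most 2 in each direction per comparison. Promoters came from RefSeq (GRCm38.p6).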

Additional observations from a re-analysis of the deposited data

Results flagged for a closer look

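Nfkbia was lower in every sepsis library than in every control library of Ly6C- GMP (-0.68 ± 0.20, log2, edgeR) and higher in every sepsis library than in every control library of preNeu (0.34 ± 0.20). Of all tested genes, 17.7% were lower in this way in Ly6C- GMP and 14.2% were higher in this way in preNeu. The test of a difference between the 4 populations gave Nfkbia an edgeR adjusted p of 0.093. In DESeq2 3 genes of the 10 passed it, which were Nfkbia (DESeq2 adjusted p = 0.035), Rela and Relb.

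Of 85 tested genes of the 5 pathway lists, the sepsis effect differed between populations for 13, where 6.34% of all genes passed that test. Values follow for the 6 of these that were among the genes followed individually. Lcn2, a granule protein that binds bacterial iron carriers, changed by 4.31, 2.36, 3.55 and 0.36 on the log2 scale in Ly6C- GMP, proNeu1, proNeu2 and preNeu (edgeR adjusted p of the difference 3.1e-06). C3 changed by 1.01, -0.15, -0.46 and -0.85 in the same order (1.0e-05). Nfkbid changed by 1.81, 1.60, 0.54 and -0.32 (0.0020), and Rnf31 by 0.42, 0.72, 1.25 and -0.05 (0.0067). Myd88 changed by 1.84, 1.40, 1.26 and 1.04 (0.024) and Tlr2 by 2.41, 1.61, 2.88 and 2.86 (0.040), both higher in all 4 populations. The Tlr2 and Myd88 differences were lost in 14 and 9 of 30 alternatives.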

How the results depend on the processing

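Of 2429 single-gene results of the 10 genes under other settings, 2340 stayed on their side of the threshold, 47 lost and 42 gained a call, and 0 turned the direction of a called change. Of the 1859 that are log2 changes, 52 had the other sign, and 0 of those were called. Of 47 calls between 2 groups or as a mean, 35 were made in every alternative. DESeq2 called 1057 genes between proNeu1 and proNeu2 (555 in edgeR; members 1 against 0), 8 members between TpMo and Ly6Chi Mo (5), 2 in sepsis preNeu (1), and 1911 genes and 3 members for the difference between populations (1154 and 0). Without the shallow libraries, 1745 genes were called in sepsis proNeu1 (2839) and 2 members in sepsis preNeu. Fitting only the libraries compared called 353 genes between proNeu1 and proNeu2 and 1219 in sepsis preNeu (2145). Halved counts, chosen after seeing that most small counts were even, called 2 members in sepsis preNeu and 1 for the difference between populations.

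Leaving out 1 library gave 711 to 907 genes in proNeu1 against Ly6C- GMP (1100 with all), 226 to 446 between proNeu1 and proNeu2 (members 0 to 1), 1880 to 2266 in sepsis proNeu1, 2060 to 2694 in sepsis proNeu2 (3097), 1226 to 2646 in sepsis preNeu (members 0 to 2) and 734 to 1403 for the difference between populations (members 0 to 1). It gave 1 to 5 members in sepsis Ly6C- GMP and in proNeu1 against cMoP. With 2 libraries left in a group, the spread is taken from all groups. Without Ly6Chi Mo replicate 1, Vcam1 was lower in Ly6Chi Mo than in TpMo (-1.67; adjusted p = 0.049), where it had been 0.49 and not called; without replicates 2 and 3 it was 0.79 and 0.99. The cause of these shifts was not tested. No paired analysis was possible because the labels give no replicate numbers shared between groups. Depth limits Relb most, with 4 counts in control proNeu2.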
